A study of Mus musculus with 12 samples.

Results

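The 53 genes described here encode the machinery that copies chromosomal DNA in S phase, from the complexes that load the helicase at origins to the enzymes that supply nucleotides and pack the new strands into chromatin, together with 4 E2F transcription factors. They were taken by symbol from a written list. Each symbol matched 1 row of the count table, so the members were 53 of 55357 genes listed, and all 53 were among the 17358 genes with enough counts to be tested. RNA was sequenced from whole livers of 12 male C57BL/6J mice killed at 13 weeks of age after 6 weeks on a diet. The KO mice (PPARa fl/fl AlbuminCre Tg/+) had lost the lipid-sensing nuclear receptor PPARα through a Cre that the albumin promoter drives in hepatocytes, so other liver cells kept the gene. The WT mice (PPARa fl/fl AlbuminCre +/+) carried the same floxed alleles without Cre. The chow groups held 4 WT and 2 KO libraries, and the CDAHFD groups, fed a choline-deficient L-amino acid-defined diet rich in fat that is used to bring on steatohepatitis, held 3 WT and 3 KO libraries. Group sizes follow the labels, while the methods of the study give an equal number of mice in every group.

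DNA replication starts when the origin recognition complex, with Cdc6 and Cdt1, loads the MCM helicase onto origins before S phase. Cdc45 and the GINS complex then switch the helicase on, polymerase alpha with primase lays down primers, and polymerases epsilon and delta extend them while the PCNA clamp, placed by the RFC loader, holds them on the template. Most of these genes are targets of E2F transcription factors, which the RB family holds back in resting cells. Most hepatocytes of an adult liver are out of the cell cycle, and the liver re-enters it after injury.

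Because the E2F site is the shared feature by which this gene class is best known, promoter windows were read from RefSeq sequence on GRCm38.p6, from 250 bases before to 50 bases after each annotated start. A window was found for 45 of the 53 members, and not for Mcm4, Gins1, Gins2, Gins4, Rfc2, Prim2, Pole and Exo1. Searched on both strands, the E2F words TTTCCCGC, TTTGGCGC, TTTGCCGC and TTTCGCGC had an exact match in 17 of the 45 members, or 37.8%, against 704 of all 27025 genes with a window, or 2.61%, and 744 of all 32851 windows, or 2.26%. The pentamer CCAAT, which none of these words contains, matched in 60% of the members and 41.1% of all genes. The word TTTGAA, the core of the CHR element of genes expressed in mitosis, matched in 15.6% of the members and 20.2% of all genes. A match is a description of letters in the window, not evidence of a bound factor.

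The 160 bases before the start are printed for 6 members that the results below turn on, 5′ to 3′ on the strand of the gene, with exact E2F words in capitals. The first 4 are the members with a word in this stretch that rose most in KO chow, at chr11:98907991-98908150, plus strand for Cdc6, chr8:75109349-75109508, plus strand for Mcm5, chr1:128359706-128359865, minus strand for Mcm6 and chr4:108579294-108579453, plus strand for Orc1. In Mcm5 and Mcm6, words on opposite strands overlap, so that 1 run of capitals holds both. The other 2 are Mcm10, at chr2:5012792-5012951, minus strand, and E2f8, at chr7:48881597-48881756, minus strand, the members with the largest decreases in KO chow, and neither stretch holds an E2F word.
Cdc6: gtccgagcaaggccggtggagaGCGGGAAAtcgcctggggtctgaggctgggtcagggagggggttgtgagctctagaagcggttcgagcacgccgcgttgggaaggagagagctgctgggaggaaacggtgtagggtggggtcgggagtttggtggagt
Mcm5: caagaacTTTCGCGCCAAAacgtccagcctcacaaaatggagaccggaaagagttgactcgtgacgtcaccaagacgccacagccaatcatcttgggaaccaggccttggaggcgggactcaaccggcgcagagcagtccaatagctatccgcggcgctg
Mcm6: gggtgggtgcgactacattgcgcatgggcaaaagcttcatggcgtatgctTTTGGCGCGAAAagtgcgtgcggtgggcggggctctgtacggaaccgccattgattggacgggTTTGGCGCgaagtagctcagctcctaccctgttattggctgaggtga
Orc1: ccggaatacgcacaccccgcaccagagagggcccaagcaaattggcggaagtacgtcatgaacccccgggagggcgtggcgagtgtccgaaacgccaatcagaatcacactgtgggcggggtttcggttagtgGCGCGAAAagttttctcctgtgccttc
Mcm10: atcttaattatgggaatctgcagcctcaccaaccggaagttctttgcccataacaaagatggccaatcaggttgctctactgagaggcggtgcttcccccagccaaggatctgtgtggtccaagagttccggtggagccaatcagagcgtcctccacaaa
E2f8: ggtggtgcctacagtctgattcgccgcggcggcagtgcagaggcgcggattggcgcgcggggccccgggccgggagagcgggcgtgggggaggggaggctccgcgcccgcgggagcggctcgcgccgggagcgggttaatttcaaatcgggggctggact

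Of the 27 members with a window that were higher in KO chow than in WT chow, 14 held an E2F word, against 3 of the 15 with no call and none of the 3 that were lower. Distances were taken from the window with the most words where a member had several. They fell on both sides of the start, from 194 bases before it in E2f7 to 43 bases after it in Pold1 and E2f2. Mcm6 held the most words, with 3.

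**Figure D1:**
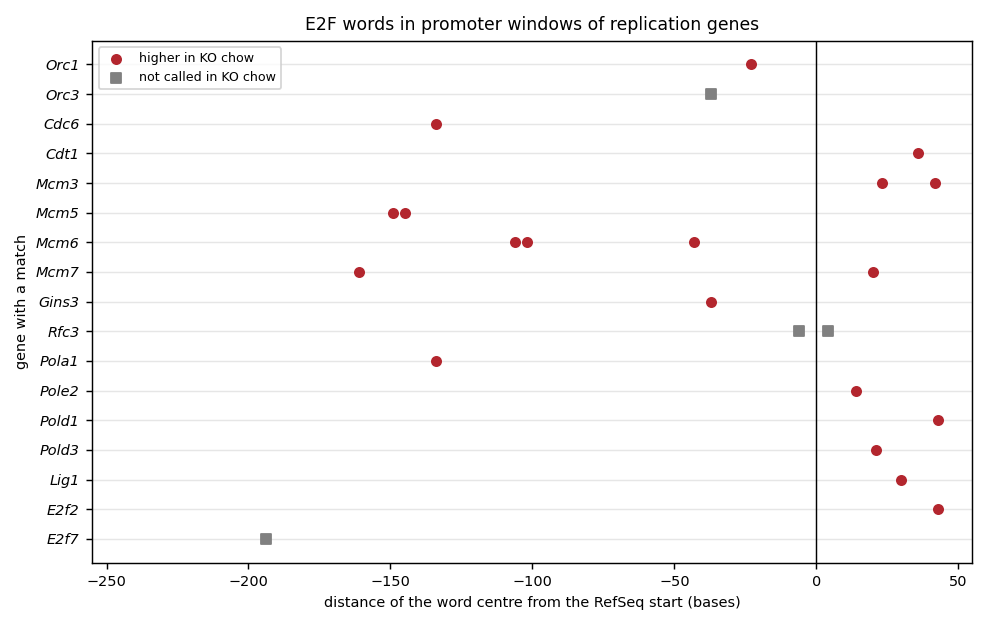
Position of each exact E2F word (points) in the promoter window with the most words, for each of the 17 members that hold one. Positions are distances of the word's centre from the RefSeq start in bases, where negative values lie before the start. Circles mark members higher in KO chow than in WT chow and squares mark Orc3, Rfc3 and E2f7, which were not called; the pairs of near points in Mcm5 and Mcm6 are words that overlap on opposite strands.

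The libraries held 29906785 to 43551003 counts. Ppara, the targeted gene, stood at 120.1, 96.2, 238 and 226 CPM (counts scaled to the TMM-adjusted library size) in WT chow, 59.5, 75.5 and 73.5 CPM in WT CDAHFD, 14.4 and 38.7 CPM in KO chow and 36.3, 20.7 and 51.9 CPM in KO CDAHFD, below every WT library in all 5 KO libraries. The 8 hepatocyte markers were abundant in every library, with sums of 94150 to 109700 CPM in WT chow, 76950 and 89380 CPM in KO chow, 48160 to 57500 CPM in WT CDAHFD and 45620 to 59080 CPM in KO CDAHFD. Summed markers of macrophages, stellate cells and cholangiocytes were higher outside WT chow, and those of endothelial cells and erythroid precursors were not. The 10 macrophage and Kupffer cell markers summed to 353.9 to 647.5 CPM in WT chow, 1255 and 1527 CPM in KO chow, 1526 to 2110 CPM in WT CDAHFD and 1427 to 1712 CPM in KO CDAHFD. They did not move together: in each CDAHFD group 6 of the 10 were called higher than in WT chow and 1 lower. Timd4 averaged 9.73 CPM in WT chow, 0.411 CPM in WT CDAHFD and 1.46 CPM in KO CDAHFD. Lyz2, the largest part of the CDAHFD sums, averaged 84.1, 985 and 817 CPM in the same order. Against WT chow, 22.0% of all genes tested were called higher and 17.0% lower in KO chow. The shares were 26.1% and 25.0% in WT CDAHFD, and 26.9% and 25.4% in KO CDAHFD. In KO chow against WT chow, 8 of the 10 macrophage and Kupffer cell markers, 4 of 7 of stellate cells and fibroblasts, 5 of 6 of cholangiocytes, 5 of 8 of T and NK cells (with 1 lower) and 3 of the 5 tested of neutrophils and their precursors were called higher, and 5 of 8 hepatocyte markers lower. Of the 6 endothelial markers, 1 was higher in KO chow and 3 were lower in each CDAHFD group, with sums of 177.6 to 272.2 CPM in WT chow and 121.4 to 170.1 CPM in WT CDAHFD. Of the 5 erythroid precursor markers tested, all 5 were lower in WT CDAHFD, 3 with CDAHFD in KO mice and 2 in KO chow, and of the 5 B and plasma cell markers tested, 1 was higher in KO chow and none was called in the CDAHFD groups. The endothelial and B cell calls in KO chow were thus near the share of all genes. The neutrophil granule genes Mpo and Elane averaged at most 0.211 CPM in every group. Transcripts of 1 cell type cannot be told apart from fewer or more cells of that type in whole tissue, and the part of these shifts in the results below was not tested. The clock gene Dbp was at 0.388, 0.472, 130.3 and 85.9 CPM in WT chow, 1.25 and 44.8 CPM in KO chow and 2.74, 3.34 and 117 CPM in KO CDAHFD, so 3 of the groups held libraries both under and above 10 CPM.

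Loss of PPARα on chow came with a higher level of most replication genes. In KO chow against WT chow, 31 of the 53 members were higher and 3 were lower at an adjusted p under 0.05 (edgeR quasi-likelihood test, adjusted over all genes tested), where 22.0% of all genes tested were higher and 17.0% lower. The median log2 fold change was 0.76 over the members and 0.00 over all genes tested. In WT CDAHFD against WT chow, 32 members were higher and 6 lower, where the shares of all genes were 26.1% and 25.0%, and the medians were 0.58 and -0.05. In KO CDAHFD against WT chow, 31 members were higher and 6 lower, against 26.9% and 25.4% of all genes, with medians of 0.54 and -0.04. These 3 comparisons share the 4 WT chow libraries, so their values are set side by side and not counted as separate evidence. With library size as the only scaling, which moved the median of all genes to 0.40, 0.51 and 0.57, the higher and lower counts were 42 and 1, 43 and 1, and 46 and 2, where 40.5%, 52.4% and 56.3% of all genes were higher and 6.62%, 6.74% and 6.31% lower.

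**Figure D2:**
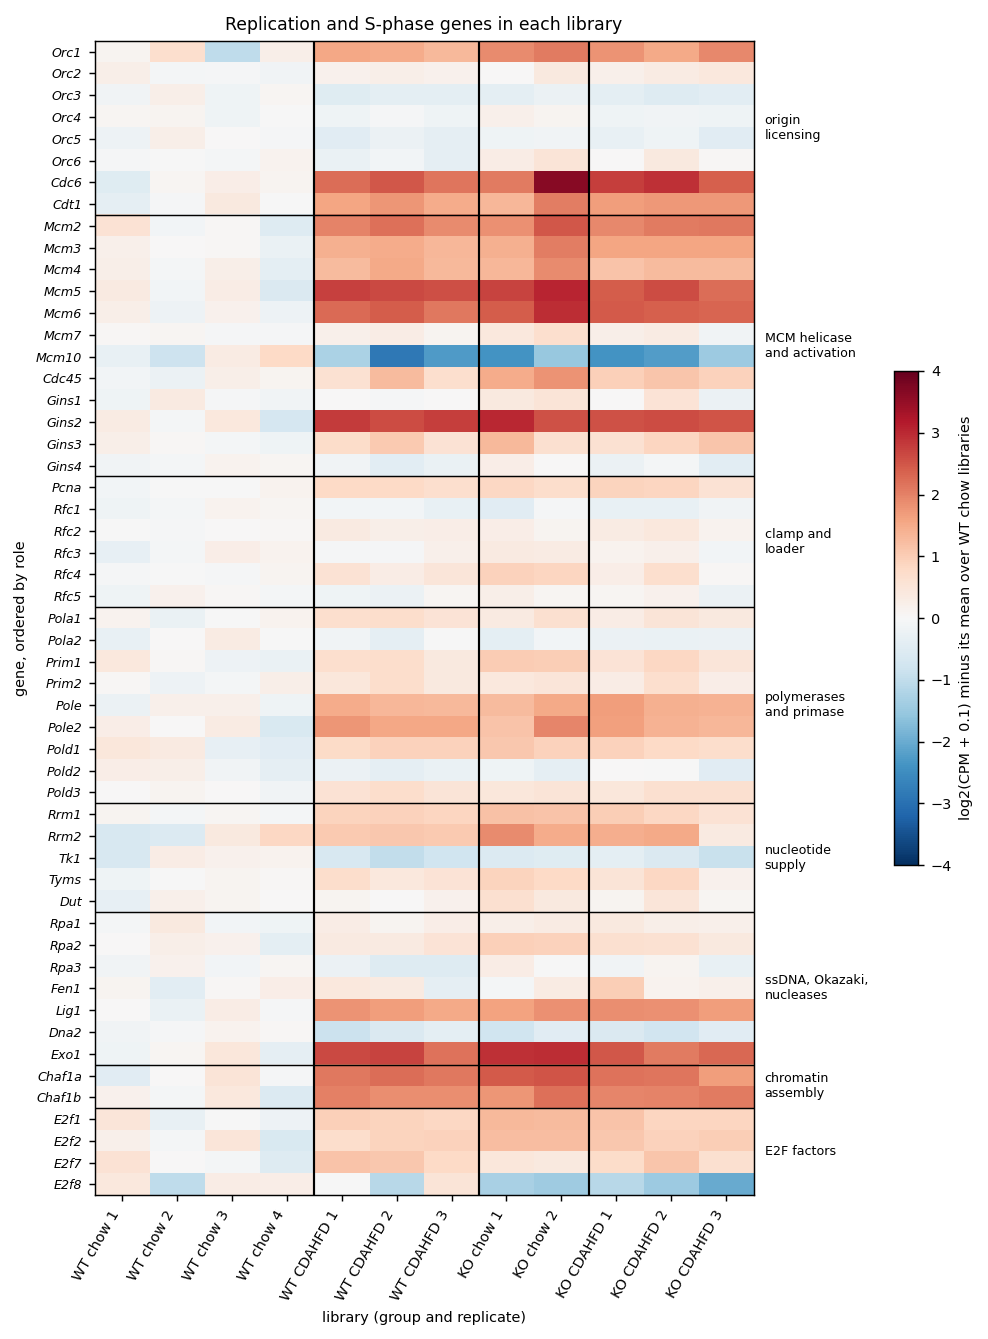
Heat map of the 53 members (rows, ordered by role) in the 12 libraries (columns), as log2(CPM + 0.1) minus its mean over the 4 WT chow libraries, with red above and blue below that mean. The rows of Cdc6, Mcm2 to Mcm6, Gins2, Exo1, Chaf1a and Chaf1b, among others, are red to differing depth in all 8 libraries outside WT chow, and Mcm10 is blue in all 8.

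Among the 8 licensing genes, the 3 that recruit or load the helicase in G1 rose, while the core subunits of the origin recognition complex were not called or fell. In KO chow, Orc1, the regulated subunit of that complex, Cdc6 and Cdt1 were called higher, none was called lower, and Orc2 to Orc6 were not called. Cdc6 (ENSMUSG00000017499, chr11:98907801-98923940) had 0.117, 0.2203, 0.267 and 0.229 CPM in WT chow, 1.31, 1.59 and 1.22 CPM in WT CDAHFD, 1.17 and 3.66 CPM in KO chow and 1.94, 2.19 and 1.48 CPM in KO CDAHFD. Every library outside WT chow lay above the 4 WT chow libraries, and KO chow replicate 2 held 3.13 times the level of replicate 1. The change was 11.4-fold in KO chow (log2 fold change 3.51, SE 0.44, adjusted p = 4.92e-05), 6.48-fold in WT CDAHFD (log2 fold change 2.697, SE 0.42) and 8.79-fold in KO CDAHFD (log2 fold change 3.13, SE 0.42). The WT chow libraries held only 3, 7, 8 and 5 counts of Cdc6, so the size of these folds rests on few counts. The size of the KO chow change rested on the library used, with 4.12 on the log2 scale without KO chow replicate 1 and 2.46 without replicate 2. Leaving out either of these leaves 1 library in KO chow, which is then assumed to vary like the other groups, here and wherever a KO chow library is left out below. Cdt1 rose 3.35-, 3.07- and 3.29-fold in the same 3 comparisons, and Orc1, a gene of only 205 counts over all libraries and overlapped by Gm12743 on the other strand, rose 5.79-, 3.72- and 4.83-fold.

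Orc3, a core subunit, had the lowest fold change of the licensing genes. It stood at 26.8, 34.7, 25.7 and 30.6 CPM in WT chow, 20.7, 22.2 and 22.2 CPM in WT CDAHFD, 22.1 and 24.7 CPM in KO chow and 22.1, 20.3 and 21.98 CPM in KO CDAHFD. The libraries outside WT chow all lay below the WT chow range, but by little. The decrease was called in WT CDAHFD (log2 fold change -0.44, SE 0.11, adjusted p = 0.00634) and in KO CDAHFD (log2 fold change -0.45, SE 0.11, adjusted p = 0.00501), and not in KO chow (log2 fold change -0.33, SE 0.13, adjusted p = 0.06201), where leaving out WT chow replicate 3 brought it past the threshold (adjusted p = 0.0391). With library size as the only scaling, the log2 fold changes of Orc3 were 0.075, 0.12 and 0.16 in the 3 comparisons with WT chow. Orc5 was also called lower in both CDAHFD groups, with means of 16.98 CPM in WT chow, 13.3 CPM in WT CDAHFD and 13.7 CPM in KO CDAHFD. There were 22 other settings, in which the scaling, filter, test or set of libraries was changed 1 at a time. Of these, 9 lost the call in WT CDAHFD and 19 that in KO CDAHFD. With library size as the only scaling, which is 1 of the 19, Orc5 was called higher in KO CDAHFD (log2 fold change 0.30).

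The MCM helicase and its activators held the highest median of the larger roles, 1.68 on the log2 scale in KO chow, with 9 of 12 genes higher, 1 lower and 2 not called. The summed level of the 6 helicase subunits, Mcm2 to Mcm7, was 34.1 to 43.99 CPM in WT chow, 89.96 to 105 CPM in WT CDAHFD, 102.0 and 141.7 CPM in KO chow and 91.3 to 102 CPM in KO CDAHFD. The subunits form 1 ring with 1 copy of each, yet their fold changes were unequal. In KO chow, Mcm5 rose 7.36-fold, Mcm6 6.64-fold, Mcm2 4.51-fold, Mcm3 3.42-fold, Mcm4 3.11-fold and Mcm7 1.46-fold. Mcm7, the subunit with the highest WT chow level, was not called in WT CDAHFD or KO CDAHFD, and its KO chow call was lost without KO chow replicate 2 and in the libraries with Dbp under 10 CPM.

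Mcm6 (chr1:128331590-128359664) had 5.67, 4.22, 5.43 and 4.17 CPM in WT chow, 23.5, 26.4 and 21.2 CPM in WT CDAHFD, 26.4 and 38.5 CPM in KO chow and 27.1, 25.6 and 24.4 CPM in KO CDAHFD. Mcm5 (chr8:75109569-75128439) had 2.56, 1.83, 2.43 and 1.28 CPM in WT chow, 13.5, 12.7 and 12.2 CPM in WT CDAHFD, 13.3 and 16.8 CPM in KO chow and 10.98, 12.4 and 9.63 CPM in KO CDAHFD. For both genes the WT chow libraries lay apart from all others, and for Mcm6 the KO chow mean of 32.4 ± 8.56 CPM (SD, n = 2) was the highest of the 4 groups. The Mcm6 changes were 2.73 in KO chow (SE 0.17, adjusted p = 2.18e-07), 2.28 in WT CDAHFD (SE 0.16, adjusted p = 1.94e-07) and 2.40 in KO CDAHFD (SE 0.16, adjusted p = 1.28e-07) on the log2 scale. Those of Mcm5 were 2.88, 2.65 and 2.43.

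Gins2, a subunit of the GINS complex that joins Cdc45 to the helicase, had the largest increase of this role. Its level was 0.66, 0.472, 0.7003 and 0.275 CPM in WT chow, 4.04, 3.59 and 4.02 CPM in WT CDAHFD, 4.73 and 3.395 CPM in KO chow and 3.39, 3.53 and 3.31 CPM in KO CDAHFD. The libraries of the 3 other groups lay between 3.31 and 4.73 CPM, clear of the WT chow range. The rise was 7.56-fold in KO chow (log2 fold change 2.92, SE 0.27, adjusted p = 4.18e-06), 7.23-fold in WT CDAHFD (adjusted p = 1.30e-06) and 6.35-fold in KO CDAHFD (adjusted p = 2.27e-06). Exons of Gse1 on the opposite strand cover 67.3% of the exonic length of Gins2, and the methods of the study name no step that keeps the strand. Of the other GINS subunits, Gins3 was higher in all 3 comparisons, with 1 of the 22 settings losing the call in KO chow (without KO chow replicate 1) and 1 in KO CDAHFD, and Gins1 and Gins4 were not called in any. Cdc45 rose 3.29-fold in KO chow, 1.91-fold in WT CDAHFD and 2.06-fold in KO CDAHFD.

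Mcm10, which helps to start the unwinding of DNA and to stabilise the fork, went the other way. It had 122, 85.3, 188 and 265 CPM in WT chow, 62.7, 20.9 and 31.2 CPM in WT CDAHFD, 28.7 and 52.3 CPM in KO chow and 28.8, 32.3 and 55.5 CPM in KO CDAHFD. The 4 WT chow libraries were the 4 highest and spread widely among themselves (165 ± 78.9 CPM, SD, n = 4). Of these, replicates 3 and 4, with Dbp at 130.3 and 85.9 CPM, held the most Mcm10. KO chow replicate 2 and KO CDAHFD replicate 3, with Dbp at 44.8 and 116.7 CPM, were also the highest of their groups. All 3 WT CDAHFD libraries had Dbp under 10 CPM, with Mcm10 from 20.9 to 62.7 CPM. With a covariate from the clock genes Dbp and Arntl, chosen after seeing the data, Mcm10 stayed called lower in all 3 comparisons. The hour at which the mice were killed is not given, so the part of clock time in the decrease was not tested. The decrease was 4.07-fold in KO chow (log2 fold change -2.02, SE 0.53, adjusted p = 0.00871), 4.31-fold in WT CDAHFD (log2 fold change -2.11, SE 0.45, adjusted p = 0.00179) and 4.24-fold in KO CDAHFD (log2 fold change -2.08, SE 0.45, adjusted p = 0.00179). Without KO chow replicate 1 the KO chow call was lost (log2 fold change -1.64, adjusted p = 0.109). Of the 53 members, Mcm10 had the lowest fitted log2 fold change in each of these 3 comparisons.

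**Figure D3:**
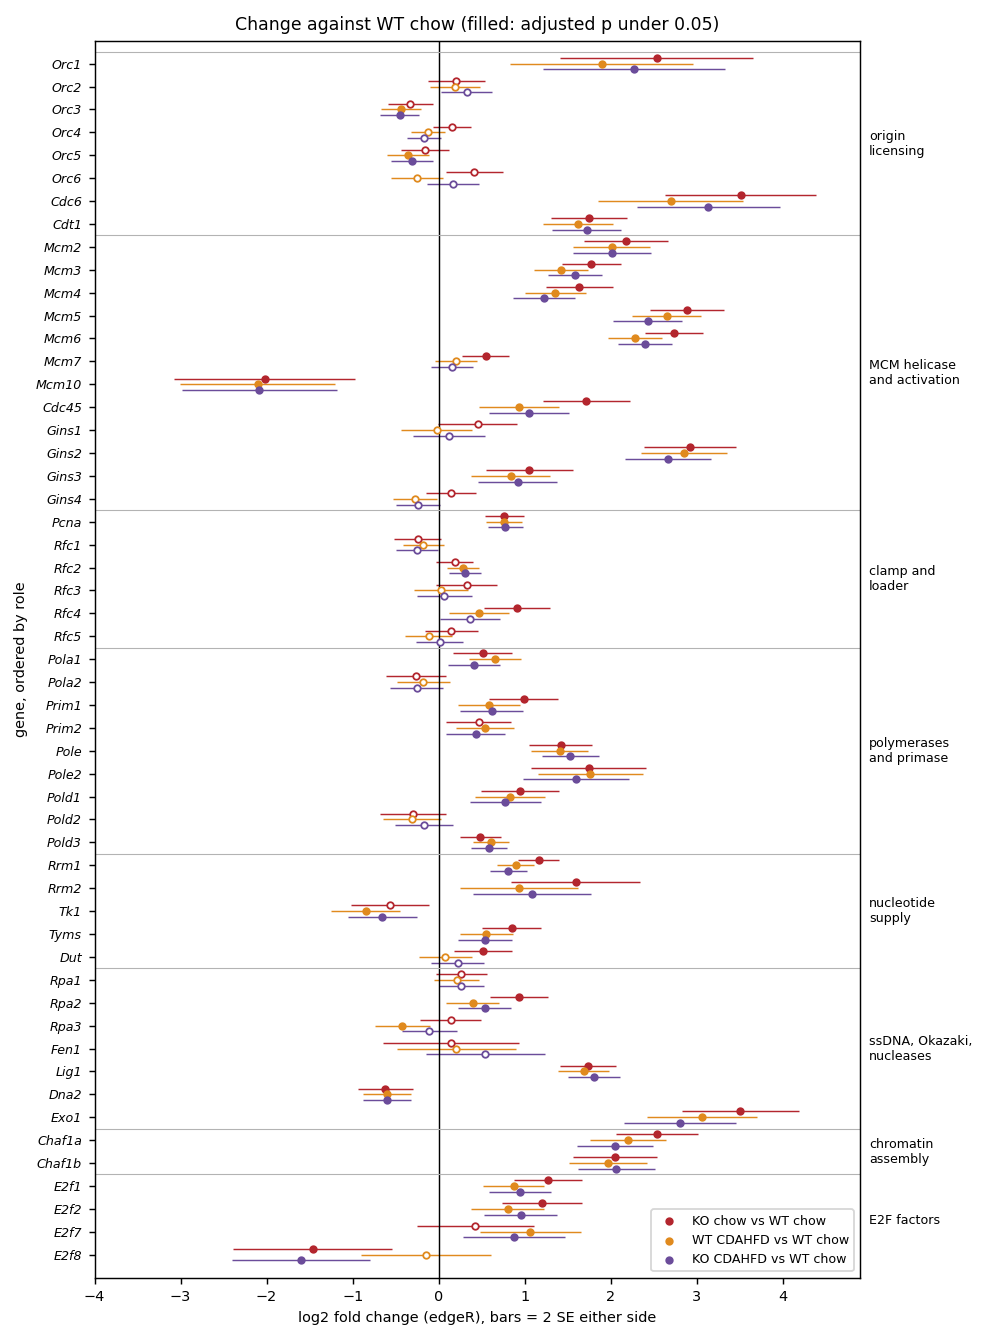
Log2 fold change of each member (rows, ordered by role) in KO chow (red), WT CDAHFD (orange) and KO CDAHFD (purple), each against the same 4 WT chow libraries, with bars of 2 SE either side from the edgeR fit. Filled points passed an adjusted p of 0.05; most filled points lie right of 0, and Mcm10 near -2 and Dna2 near -0.6 are filled on the left in all 3 colours.

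The clamp and its loader changed less. Pcna, the sliding clamp and the member with the highest level per length, had 28.2, 30.1, 30.5 and 33.7 CPM in WT chow, 52.8, 53.8 and 48.9 CPM in WT CDAHFD, 53.8 and 49.96 CPM in KO chow and 56.3, 55.5 and 45.4 CPM in KO CDAHFD. All 8 libraries outside WT chow lay above the WT chow range, and the rise was 1.69-, 1.69- and 1.71-fold in the 3 comparisons (KO chow first, then the WT and KO CDAHFD groups, adjusted p = 0.000205, 5.18e-05 and 4.05e-05). Of the 5 loader subunits, only Rfc4 was called in KO chow.

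Rfc4 had 2.76, 2.801, 2.73 and 3.03 CPM in WT chow, 4.28, 3.495 and 3.96 CPM in WT CDAHFD, 5.44 and 5.19 CPM in KO chow and 3.39, 4.598 and 2.95 CPM in KO CDAHFD. The KO chow libraries were the highest of the 12, and KO CDAHFD replicate 3 lay inside the WT chow range. Its change was 0.91 on the log2 scale in KO chow (SE 0.19, adjusted p = 0.00244), 0.47 in WT CDAHFD (SE 0.17, adjusted p = 0.0389) and 0.37 in KO CDAHFD (SE 0.18, adjusted p = 0.0981). The WT CDAHFD call was lost in 7 of the 22 settings, among them without WT chow replicate 3, WT CDAHFD replicate 1 or WT CDAHFD replicate 3 (adjusted p = 0.0558, 0.134 and 0.0892), and the KO CDAHFD change passed without KO CDAHFD replicate 3 (adjusted p = 0.0390). The abundant gene Eif4a2 overlaps Rfc4 on the other strand. Rfc1, the large loader subunit, had the lowest change, at 29.8, 32.2, 37.2 and 35.9 CPM in WT chow, 30.9, 31.3 and 27.4 CPM in WT CDAHFD, 24.5 and 32.6 CPM in KO chow and 27.2, 27.5 and 30.4 CPM in KO CDAHFD, and its groups overlapped. Its log2 fold change of -0.24 in KO chow was not called (SE 0.14, adjusted p = 0.183), turned to 0.16 when scaled by library size alone, and passed without KO chow replicate 2 (-0.46, adjusted p = 0.0461). Scaled by library size alone, Rfc1 was called higher in WT CDAHFD (log2 fold change 0.39) and KO CDAHFD (0.37), where 52.4% and 56.3% of all genes were. Rfc2 was higher in both CDAHFD groups, at 30.2 and 30.6 CPM against 24.8 CPM. These Rfc2 calls were lost without WT CDAHFD replicate 1 and without KO CDAHFD replicate 2 respectively. Rfc3 and Rfc5 were not called in any of the 3 comparisons.

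Among the polymerases and primase, 6 of 9 genes were higher in KO chow and 7 in each CDAHFD group, and none was lower. Both members of polymerase epsilon, the leading-strand enzyme, rose, with Pole at 2.67-, 2.65- and 2.89-fold in KO chow and the WT and KO CDAHFD groups. Pole2, its second subunit, had 0.505, 0.409, 0.533 and 0.229 CPM in WT chow, 1.598, 1.38 and 1.38 CPM in WT CDAHFD, 1.01 and 1.84 CPM in KO chow and 1.48, 1.23 and 1.17 CPM in KO CDAHFD. The WT chow libraries were the 4 lowest, although the gene had only 528 counts over the 12 libraries. Its rise was 3.34-fold in KO chow (log2 fold change 1.74, SE 0.34, adjusted p = 0.00134), 3.396-fold in WT CDAHFD (adjusted p = 0.000395) and 3.02-fold in KO CDAHFD (adjusted p = 0.000846).

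The polymerase delta subunits, which extend the lagging strand, did not change together. Pold1, the catalytic subunit, rose 1.93-, 1.78- and 1.71-fold and Pold3 1.4-, 1.52- and 1.496-fold, while Pold2 was called in none of the 3 comparisons. The KO chow call of Pold1 was lost without KO chow replicate 1. Pold2 had 16.3, 15.99, 12.3 and 10.6 CPM in WT chow, 11.6, 10.6 and 11.3 CPM in WT CDAHFD, 11.9 and 10.5 CPM in KO chow and 13.7, 13.4 and 9.82 CPM in KO CDAHFD, and each of the other groups overlapped WT chow. Its KO chow log2 fold change was -0.30 (SE 0.19, adjusted p = 0.24), and with library size as the only scaling it was 0.095, with 0.24 and 0.43 in the WT and KO CDAHFD groups. It was called lower with a replicate block in KO chow (-0.49, adjusted p = 0.0474) and WT CDAHFD (-0.40, adjusted p = 0.0434), with a clock covariate built from Dbp and Arntl in the same groups (-0.33, adjusted p = 0.0392, and -0.43, adjusted p = 0.00470), and in WT CDAHFD in the libraries with Dbp under 10 CPM (-0.53, adjusted p = 0.00325). In the primase-polymerase alpha complex, Pola1 and Prim1 rose in all 3 comparisons, by 1.42- and 1.99-fold in KO chow, Prim2 was called higher in both CDAHFD groups but not in KO chow, and Pola2 was not called. The Pola1 call was lost in 6 of the 22 settings in KO chow, among them without WT chow replicate 2 and without KO chow replicate 2, and in 9 in KO CDAHFD. The Prim2 call was lost in 12 of them in KO CDAHFD and in 1 in WT CDAHFD, and Prim1 lost its call in 3 in WT CDAHFD and 2 in KO CDAHFD.

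Genes of deoxynucleotide supply rose in 4 of 5 cases in KO chow. Rrm2, the S-phase subunit of ribonucleotide reductase, had 3.61, 3.903, 7.54 and 10.2 CPM in WT chow, 11.99, 12.2 and 11.9 CPM in WT CDAHFD, 21.7 and 16.2 CPM in KO chow and 15.8, 16.8 and 7.45 CPM in KO CDAHFD. KO chow and WT CDAHFD lay above the WT chow range, the WT chow libraries spread widely, and KO CDAHFD replicate 3 fell inside it. The rise was 3.02-fold in KO chow (log2 fold change 1.59, SE 0.37, adjusted p = 0.00479), 1.91-fold in WT CDAHFD (log2 fold change 0.94, SE 0.34, adjusted p = 0.0359) and 2.13-fold in KO CDAHFD (log2 fold change 1.09, SE 0.34, adjusted p = 0.0174). The WT CDAHFD call was lost without WT chow replicate 1 or 2 or any 1 WT CDAHFD library (adjusted p = 0.0658 to 0.0806), and the KO CDAHFD call without KO CDAHFD replicate 1 or 2 (adjusted p = 0.0666 and 0.0762). Rrm1, the large subunit, moved with little spread, from 12.5 ± 0.874 CPM in WT chow (SD, n = 4) to 23.2 ± 0.5296 in WT CDAHFD (n = 3), 27.99 ± 0.179 in KO chow (n = 2) and 21.9 ± 2.903 in KO CDAHFD (n = 3). Thymidylate synthase, Tyms, rose 1.798-fold in KO chow, and Dut, which clears dUTP, rose 1.43-fold there and was not called in the CDAHFD groups. The Dut call was lost in 4 of the 22 settings, among them without KO chow replicate 1 and with the replicate block.

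Tk1, the thymidine salvage kinase and a usual marker of proliferation, did not rise. It had 14.1, 27.1, 25.04 and 24.4 CPM in WT chow, 13.97, 11.2 and 12.6 CPM in WT CDAHFD, 15.01 and 15.7 CPM in KO chow and 16.6, 14.8 and 11.8 CPM in KO CDAHFD. WT chow replicate 1 was far below the other 3 WT chow libraries and near the remaining groups. The log2 fold change was -0.56 in KO chow (SE 0.23, adjusted p = 0.0677), not called, -0.85 in WT CDAHFD (SE 0.20, adjusted p = 0.00343) and -0.65 in KO CDAHFD (SE 0.20, adjusted p = 0.0148), both called lower. Without WT chow replicate 1 the KO chow decrease was called (-0.72, adjusted p = 0.00259), and without KO CDAHFD replicate 3 the KO CDAHFD call was lost (adjusted p = 0.0690), as it was in 5 of the 22 settings in all. With library size as the only scaling both CDAHFD calls were lost, at log2 fold changes of -0.28 and -0.040. Afmid overlaps Tk1 on the other strand with a similar number of counts.

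Of the 7 genes that bind single strands or finish and process the ends of DNA, Rpa2, Lig1 and Exo1 rose in KO chow and Dna2 fell. Exo1, an exonuclease of mismatch repair and end resection, had 0.117, 0.157, 0.233 and 0.0917 CPM in WT chow, 1.43, 1.48 and 1.005 CPM in WT CDAHFD, 1.77 and 1.79 CPM in KO chow and 1.26, 0.936 and 1.09 CPM in KO CDAHFD. The 8 libraries outside WT chow all lay above the WT chow range. The rise was 11.3-fold in KO chow (log2 fold change 3.50, SE 0.34, adjusted p = 6.03e-06), 8.33-fold in WT CDAHFD (adjusted p = 6.23e-06) and 7.001-fold in KO CDAHFD (adjusted p = 1.34e-05). With 3, 5, 7 and 2 counts of Exo1 in the WT chow libraries, the size of these folds is imprecise. Lig1, the ligase that joins Okazaki fragments, rose 3.33-, 3.21- and 3.496-fold.

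Dna2, a nuclease-helicase that trims Okazaki flaps and resects ends, stood at 17.6, 18.8, 21.4 and 20.04 CPM in WT chow, 10.7, 13.1 and 14.7 CPM in WT CDAHFD, 11.2 and 14.2 CPM in KO chow and 13.1, 11.3 and 14.1 CPM in KO CDAHFD. All libraries outside WT chow lay below the WT chow range. The decrease was 1.54-fold in KO chow (log2 fold change -0.62, SE 0.16, adjusted p = 0.00911), 1.52-fold in WT CDAHFD (log2 fold change -0.60, SE 0.14, adjusted p = 0.00337) and 1.52-fold in KO CDAHFD (log2 fold change -0.60, SE 0.14, adjusted p = 0.003204). Scaled by library size alone it was not called, at log2 fold changes of -0.21, -0.036 and 0.018, and in KO chow it was not called without replicate 1 (-0.44, adjusted p = 0.145). Of the RPA subunits, which coat single-stranded DNA as 1 trimer, Rpa2 rose 1.91-fold in KO chow and was called higher in both CDAHFD groups. Its WT CDAHFD call was lost in 13 of the 22 settings, among them when any 1 WT CDAHFD library was left out. Rpa1 was not called in any comparison with WT chow. Rpa3 was called lower in WT CDAHFD, at 4.89 against 6.56 CPM, a call that 13 of the 22 settings lost. Fen1, the flap endonuclease, was listed with 367 counts over the 12 libraries and was not called, and Gm10143 on the other strand covers 78.8% of its exonic length.

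Both large subunits of the CAF-1 complex, the histone chaperone that follows the fork, rose in every comparison with WT chow. Chaf1a had 0.738, 1.07, 1.53 and 1.01 CPM in WT chow, 4.88, 5.32 and 4.92 CPM in WT CDAHFD, 6.17 and 6.57 CPM in KO chow and 5.09, 4.95 and 3.62 CPM in KO CDAHFD. Chaf1b had 0.971, 0.787, 1.17 and 0.5504 CPM in WT chow, 3.67, 3.32 and 3.32 CPM in WT CDAHFD, 3.07 and 4.196 CPM in KO chow and 3.54, 3.61 and 3.901 CPM in KO CDAHFD. For both genes all libraries outside WT chow lay above the WT chow range. In KO chow the rise was 5.805-fold for Chaf1a (log2 fold change 2.54, SE 0.24, adjusted p = 4.55e-06) and 4.13-fold for Chaf1b (log2 fold change 2.05, SE 0.25, adjusted p = 3.44e-05). In WT CDAHFD it was 4.59- and 3.91-fold and in KO CDAHFD 4.14- and 4.19-fold. Exons of Ubxn6 on the other strand cover 52.5% of the exonic length of Chaf1a.

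The 4 E2F factors did not move together. E2f1 and E2f2, activators of the replication genes, rose in all 3 comparisons. E2f1 had 6.17, 3.56, 4.33 and 3.76 CPM in WT chow, 8.46, 8.195 and 7.801 CPM in WT CDAHFD, 10.9 and 10.7 CPM in KO chow and 9.72, 7.97 and 8.04 CPM in KO CDAHFD. The KO chow libraries were the 2 highest and the WT chow libraries the 4 lowest. Its rise was 2.42-fold in KO chow (log2 fold change 1.27, SE 0.20, adjusted p = 0.000256), 1.83-fold in WT CDAHFD (adjusted p = 0.00133) and 1.93-fold in KO CDAHFD (adjusted p = 0.0007003). E2f2 rose 2.296-, 1.74- and 1.94-fold.

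E2f7 and E2f8 are the atypical factors, which repress E2F targets. E2f7 was called higher in both CDAHFD groups and not in KO chow, at 0.59 CPM in WT chow, 0.796 CPM in KO chow, 1.24 CPM in WT CDAHFD and 1.09 CPM in KO CDAHFD. Of the 21 settings in which it was tested, 1 lost the call in WT CDAHFD and 5 that in KO CDAHFD, among them without KO CDAHFD replicate 2. E2f8 had 17.2, 6.29, 15.8 and 15.4 CPM in WT chow, 12.6, 5.88 and 18.4 CPM in WT CDAHFD, 5.14 and 4.73 CPM in KO chow and 5.82, 4.57 and 3.04 CPM in KO CDAHFD. All 5 KO libraries lay below every WT library, while the WT groups overlapped and each held 1 low library. The decrease was 2.76-fold in KO chow (log2 fold change -1.47, SE 0.46, adjusted p = 0.0239) and 3.04-fold in KO CDAHFD (log2 fold change -1.61, SE 0.40, adjusted p = 0.00465), and WT CDAHFD was not called (log2 fold change -0.15, SE 0.38, adjusted p = 0.7601). The KO chow call was lost without KO chow replicate 1 (-1.51, adjusted p = 0.113), without replicate 2 (-1.40, adjusted p = 0.118), with the replicate block (-1.16, adjusted p = 0.0633) and with library size as the only scaling (-1.06, adjusted p = 0.0706), and the WT CDAHFD value was 0.40 with that scaling. In the libraries with Dbp under 10 CPM both KO calls were lost, at -1.18 on chow (adjusted p = 0.232) and -1.17 on CDAHFD (adjusted p = 0.114). Gm2788 overlaps 11.2% of the exonic length of E2f8 on the other strand with more counts than E2f8 itself.

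**Figure D4:**
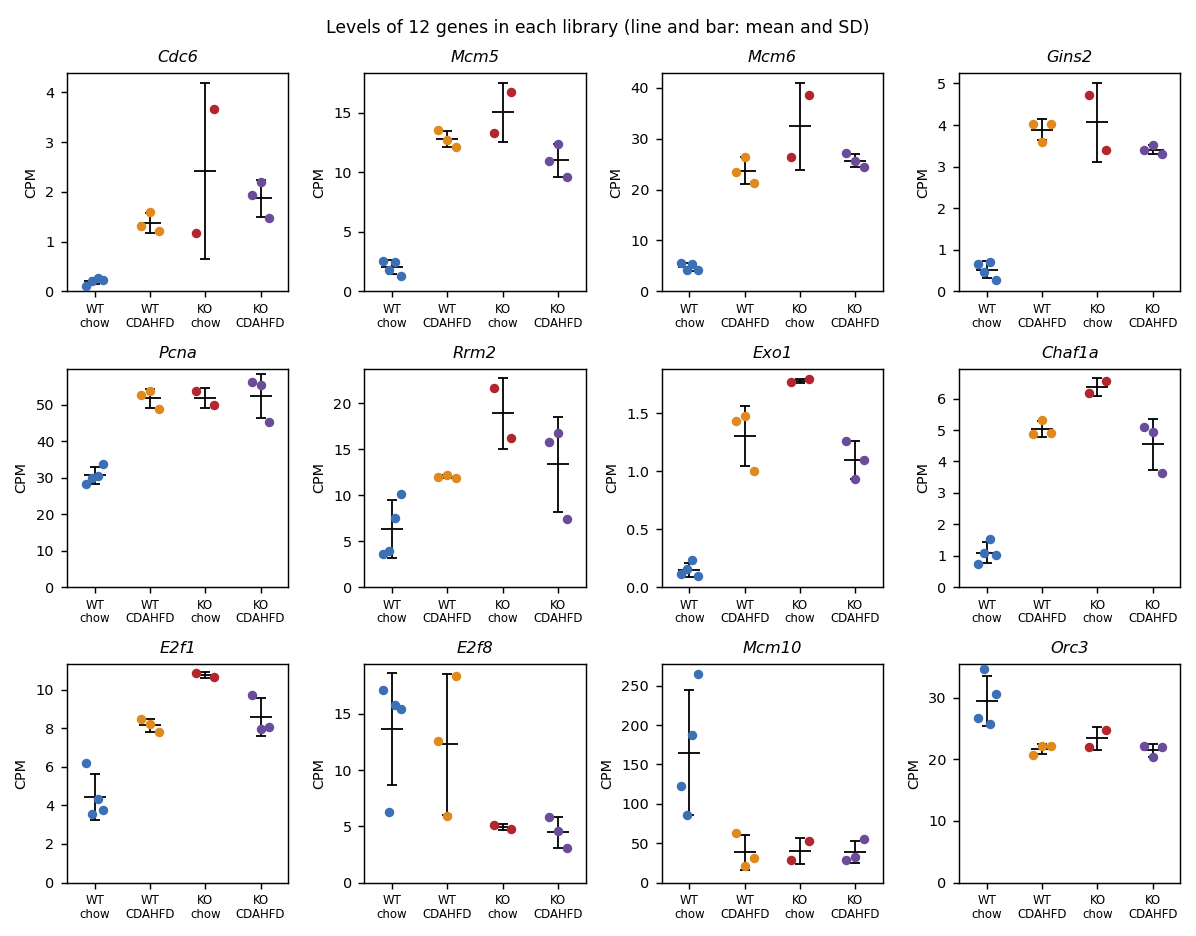
CPM of 12 members in each library (points), with the mean (line) and SD (bar) of each group, on linear axes from 0. WT chow is the lowest group for the first 9 genes, from Cdc6 to E2f1; E2f8 is low in all 5 KO libraries, and Mcm10 and Orc3 are highest in WT chow.

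Between the genotypes on CDAHFD, no member was called. In KO CDAHFD against WT CDAHFD, edgeR called none of the 53, where 0.357% of all genes were called. At an unadjusted p under 0.05 there were 2 members, against 8.77% of all genes, and DESeq2 called 1 member lower and 1.411% of all genes. The medians were 0.03 for the members and 0.01 for all genes. The member of smallest p was E2f8, 2.74-fold lower in KO CDAHFD (log2 fold change -1.45, SE 0.42, adjusted p = 0.258 by edgeR), and it is the 1 that DESeq2 called (adjusted p = 0.0272). Orc6 was next, at 3.98, 4.45 and 3.76 CPM in WT CDAHFD and 4.87, 6.44 and 5.02 CPM in KO CDAHFD (log2 fold change 0.42, SE 0.16, adjusted p = 0.458). The difference of Mcm6 was 0.12 with an interval of 2 SE from -0.20 to 0.44, that of Mcm5 -0.22 (-0.61 to 0.18) and that of Pcna 0.02 (-0.20 to 0.23), so a difference past 2-fold in either direction lies outside these intervals.

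Within the KO mice, the diet moved no member past the threshold. In KO CDAHFD against KO chow, 8 members had an unadjusted p under 0.05, against 23.1% of all genes, edgeR and DESeq2 called none after adjustment, and 6.19% of all genes were called by edgeR and 10.97% by DESeq2. The 12 genes of the helicase role all had a value below 0, with a median of -0.33. Rrm1 (log2 fold change -0.36, SE 0.13, adjusted p = 0.119) and Mcm7 (log2 fold change -0.39, SE 0.14, adjusted p = 0.127) had the smallest p. Mcm7 stood at 26.4 and 31.3 CPM in KO chow and 23.4, 24.8 and 17.8 CPM in KO CDAHFD.

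Set directly against WT CDAHFD, KO chow had 1 member called higher and none lower, where 6.12% of all genes were called, and 11 members had an unadjusted p under 0.05, against 24.0% of all genes. The member was Orc6, the small origin recognition subunit, at 5.98 and 6.94 CPM in KO chow and 3.98, 4.45 and 3.76 CPM in WT CDAHFD (log2 fold change 0.67, SE 0.18, adjusted p = 0.0441). This call was lost when any 1 library of either group was left out (adjusted p = 0.0873 to 0.162) and when KO CDAHFD replicate 1, which only feeds the spread, was left out (adjusted p = 0.0607). DESeq2 called 3 members higher and 1 lower, and 11.99% of all genes. The median over the members was 0.23, and 42 of the 53 had a value above 0.

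The test of the interaction asked whether the KO effect differed between the diets, as the KO minus WT difference on CDAHFD less that on chow. It was below 0 and called for 27 members and above 0 and called for 1, Mcm10, where 14.5% and 8.63% of all genes were called in those directions. The 5 of smallest p were Mcm6 (log2 value -2.62, SE 0.24, adjusted p = 1.13e-05), Mcm5 (-3.10, SE 0.30), Gins2 (-3.10, SE 0.36), Exo1 (-3.75, SE 0.44) and Chaf1a (-2.69, SE 0.32). For Mcm6 this set the KO chow rise of 2.73 beside a KO minus WT difference of 0.12 on CDAHFD. The Mcm10 value of 2.05 (SE 0.68, adjusted p = 0.0452) was lost as a call when WT chow replicate 3 or 4, WT CDAHFD replicate 2 or 3, or any 1 KO library was left out. The number below 0 ran from 20 to 27 as single libraries were left out.

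Levels of different members were compared per length of exon. The highest mean of the 4 groups, as CPM per kilobase of exon (RPKM), was that of Pcna, with 12.8 RPKM in WT chow, 21.6 RPKM in WT CDAHFD, 21.6 RPKM in KO chow and 21.8 RPKM in KO CDAHFD. Next were Gins4, with 11.5, 9.52, 12.7 and 9.74 RPKM in the same order, and Mcm10, with 21.45, 4.98, 5.27 and 5.05 RPKM. Mcm10 was thus the highest member in WT chow and Pcna in the 3 other groups. The lowest were Orc1, Exo1 and E2f7, with means over the 4 groups of 0.133, 0.129 and 0.103 RPKM. Exo1 was at 0.0178 RPKM in WT chow and 0.2115 RPKM in KO chow. Subunits of 1 complex were unequal in RPKM: in WT chow Gins4 was at 11.5, Gins1 at 2.30, Gins3 at 0.525 and Gins2 at 0.129 RPKM, and in KO chow at 12.7, 3.15, 1.09 and 0.992 RPKM. For the helicase, Mcm7 was at 4.47 RPKM in WT chow and Mcm2 to Mcm6 between 0.471 and 1.34, and in KO chow the 6 subunits lay between 2.13 and 6.95 RPKM.

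The KO chow group held 2 libraries, and these differed in their mitosis genes. Over the members the median log2 ratio of replicate 1 to replicate 2 was -0.06, with 31 genes higher in replicate 2 and 22 in replicate 1. Past 1.5-fold, 6 members were higher in replicate 2 and 1 in replicate 1, or 11.3% and 1.89%, where 10.8% and 9.68% of all genes tested were. All of Mcm2 to Mcm7 were higher in replicate 2, by 1.19- to 1.59-fold. Cdc6 was at 1.17 and 3.66 CPM, Mcm10 at 28.7 and 52.3 CPM and Pole2 at 1.01 and 1.84 CPM in replicates 1 and 2, the 3 lowest ratios. The 3 highest ratios were those of Gins3, with 3.64 and 2.28 CPM, Gins2, with 4.73 and 3.395 CPM, and Rrm2, with 21.7 and 16.2 CPM. The 4 E2F factors were within 1.09-fold of equal.

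The 12 genes of mitosis used as a reference were all higher in replicate 1, by a median log2 ratio of 1.12. Their sum was 355.7 CPM in replicate 1 and 181.3 CPM in replicate 2. Cdk1, the mitotic kinase, was at 40.4 and 14.2 CPM, and Aurka, a spindle kinase, at 29.6 and 10.1 CPM. With 1 library on each side, these ratios have no test. The clock genes differed between the same libraries, with Dbp at 1.25 and 44.8 CPM and Arntl at 45.2 and 15.4 CPM. KO CDAHFD replicate 3, the CDAHFD library with a Dbp of 116.7 CPM, had a mitosis sum of 104.5 CPM against 209.4 and 202.0 CPM in replicates 1 and 2, and a helicase sum of 91.3 CPM against 98.2 and 102.0 CPM. The part of clock time in these differences was not tested. In the 8 libraries with Dbp under 10 CPM, a choice made after seeing the data, 1 KO chow and 2 WT chow libraries remained, so the spread came mostly from the other groups. There 26 members were higher and 2 lower in KO chow, where 17.2% of all genes were higher and 13.1% lower, 28 and 5 in WT CDAHFD, against 24.7% and 24.0%, and 26 and 3 in KO CDAHFD, against 22.6% and 20.3%. The KO chow call of Pole2 was among those lost there (log2 fold change 1.14, adjusted p = 0.0578).

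**Figure D5:**
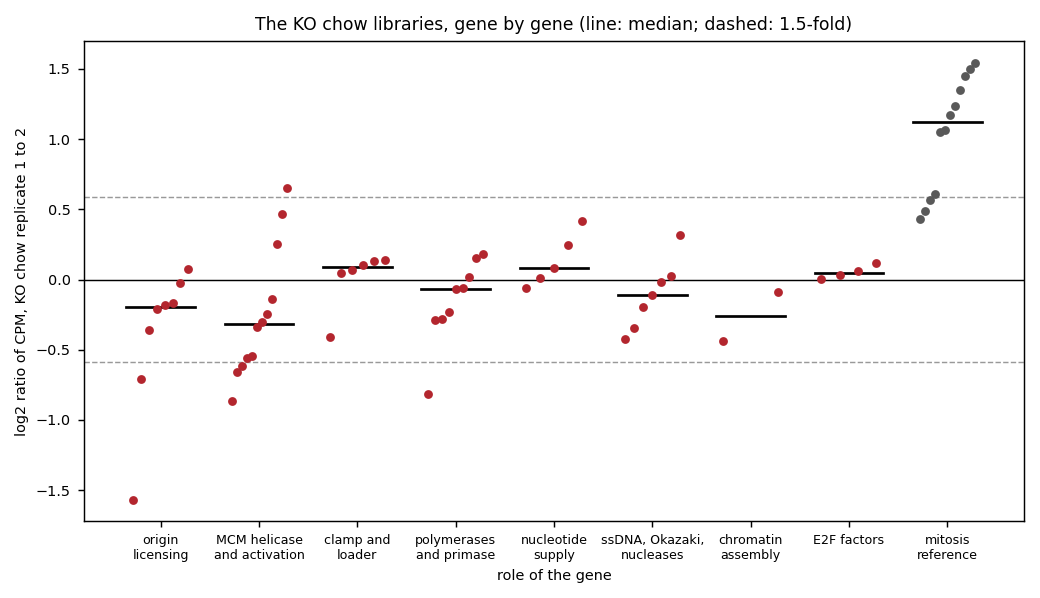
Log2 ratio of CPM in KO chow replicate 1 to replicate 2 for each member (red points, by role) and for the 12 mitosis genes (grey points), with the median of each role as a line and dashed lines at 1.5-fold. Licensing and helicase genes lie mostly below 0, with Cdc6 lowest, E2F factors lie at 0, and all 12 mitosis genes lie above 0.

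Genes of the pathway beyond the members were read from lists of the same kind. Of 26 genes of origin firing and fork protection, 15, 11 and 12 were higher and 2, 2 and 2 lower in the 3 comparisons with WT chow, in the order used above. The shares of all genes tested, for this list and those that follow, were 22.0%, 26.1% and 26.9% higher and 17.0%, 25.0% and 25.4% lower. Clspn, the adaptor of the replication checkpoint, had the highest log2 fold change of the 26 in KO chow. It stood at 0.194, 0.315, 0.167 and 0.138 CPM in WT chow and 2.99 and 2.69 CPM in KO chow (log2 fold change 3.75, SE 0.28, adjusted p = 8.94e-07). Rnaseh2c, a subunit of the enzyme that removes ribonucleotides, had the lowest. It stood at 71.3, 59.1, 63.3 and 65.04 CPM in WT chow and 51.97 and 35.2 CPM in KO chow (log2 fold change -0.57, SE 0.16, adjusted p = 0.0143). Of 14 cyclins, kinases and their regulators of S phase, 10, 8 and 12 were higher and 1, 1 and 1 lower. Ccna2, cyclin A2, had 1.98, 0.944, 1.03 and 0.504 CPM in WT chow and 27.1 and 11.8 CPM in KO chow (log2 fold change 4.11, SE 0.43, adjusted p = 1.12e-05), and its partner Cdk2 had 13.5, 14.98, 23.7 and 21.97 CPM in WT chow and 13.3 and 14.4 CPM in KO chow and was not called (log2 fold change -0.42, SE 0.20, adjusted p = 0.127).

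Of the 11 other E2F and RB family genes tested, 2, 2 and 2 were higher and 1, 1 and 1 lower, no more than the shares of all genes. Rbl1, the pocket protein p107 and itself an E2F target, had 5.12, 3.05, 2.001 and 1.33 CPM in WT chow and 12.9 and 11.2 CPM in KO chow (log2 fold change 2.06, SE 0.34, adjusted p = 0.000394), and Rbl2, the pocket protein p130 of resting cells, had 43.4, 49.7, 54.4 and 66.8 CPM in WT chow and 27.96 and 35 CPM in KO chow (log2 fold change -0.77, SE 0.17, adjusted p = 0.00306). Of 11 further genes of nucleotide metabolism, 3, 3 and 3 were higher and 2, 2 and 2 lower, near or below the shares of all genes. Among these, Dctd had the highest log2 fold change in KO chow (3.77, SE 0.66, adjusted p = 0.000613). Shmt1, a folate enzyme abundant in liver, had the lowest (-1.30, SE 0.18, adjusted p = 0.000107). Dctd was at 0.0388, 0.06295, 0.1 and 0 CPM in WT chow, so its fold rests on few counts. Of 10 genes of chromatin at the fork, 6, 5 and 5 were higher and 1, 1 and 1 lower. Uhrf1, which keeps DNA methylation through replication, had 0.427, 0.409, 0.767 and 0.275 CPM in WT chow and 5.602 and 10.9 CPM in KO chow (log2 fold change 4.10, SE 0.32, adjusted p = 1.14e-06), and Rbbp4, the third subunit of CAF-1, fell from 206, 199, 183 and 214 CPM in WT chow to 123 and 109 CPM in KO chow (log2 fold change -0.79, SE 0.11, adjusted p = 9.40e-05).

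All 12 mitosis genes were higher in each of the 3 comparisons, by medians of 4.48, 3.93 and 3.62 on the log2 scale. Ccnb1, cyclin B1, rose most in KO chow, from 0.543, 0.157, 0.433 and 0.321 CPM in WT chow to 38.4 and 16.3 CPM (log2 fold change 6.24, SE 0.50, adjusted p = 1.49e-06), and Cenpa, the centromeric histone, least (log2 fold change 1.98, SE 0.19, adjusted p = 5.22e-06). The summed level of the 12 was 17.1 to 21.4 CPM in WT chow, 184.0 to 209.7 CPM in WT CDAHFD, 355.7 and 181.3 CPM in KO chow and 104.5 to 209.4 CPM in KO CDAHFD.

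Genes on the opposite strand may limit some of these values, since the methods of the study name no step that keeps the strand. Beside the cases named above, exons of Nif3l1 overlap Orc2, those of Acvr2a and Mbd5 overlap Orc4, Vps35 overlaps Orc6, Cops6 and Ap4m1 overlap Mcm7, Ufd1 overlaps Cdc45, Lat2 overlaps Rfc2, Wsb2 overlaps Rfc5, Tmem258 overlaps Fen1 and Zswim9 overlaps Lig1, where the counts of the other gene came to at least 10% of the member's. If the strand was not kept, reads of such a pair cannot be told apart in the shared exons. Orc1, Exo1, Pole2, E2f7 and Fen1 averaged under 50 counts a library, so their levels carry the largest counting error.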

How the data were processed

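Poly(A) RNA of 12 mouse livers was sequenced, 1 library per mouse as labelled, and the methods name no step that keeps the strand. The deposited values are raw counts per gene, which the authors made after FastQC 0.11.5 and alignment with STAR 2.7.3a to GRCm38, and the counting tool is not given in the sources used here. Where nothing says how the mice were housed or processed together, p-values measure only the spread between these libraries. Symbols and positions came from GENCODE M21, which matched 52081 of 55357 gene IDs, and promoter sequences from RefSeq (GRCm38.p6).

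Counts were tested with the edgeR 4.0.16 quasi-likelihood test (R 4.3.3, TMM factors, genes kept by filterByExpr), with 1 mean per group over the 12 libraries and Benjamini-Hochberg adjustment over 17358 genes. Total counts of 29906785 to 43551003 set the precision of low genes. The steps were tested on simulated data. Levels are CPM or, between genes, RPKM, both computed here, and log2 ratios of single libraries used a pseudocount of 0.1 CPM. Intervals span 2 SE.

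The members, lists and tests were chosen with earlier results of these data known. Per-library values were printed for the highest and lowest fold change of each role and other list in KO chow, the members called or of smallest p in the other comparisons, the extreme ratios between the KO chow libraries, the extreme RPKM values and Ppara. Pcna, Cdk1, Aurka, Dbp and Arntl were added after their values were seen. Alternatives were DESeq2 1.42.0, its size factors, upper-quartile factors, library size only, no filter, a mean of at least 50 counts, only the groups compared, a replicate block and each library left out. Restricting to libraries with Dbp under 10 CPM, and a covariate from Dbp and Arntl, were chosen after seeing the data.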

Additional observations from a re-analysis of the deposited data

Results flagged for a closer look

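E2f8 had 1 WT chow library, replicate 2, at 6.295 CPM, where the other 3 lay between 15.4 and 17.2 CPM. Its gap to the nearest library, as a share of the range of the group, was above the Dixon limit at the 95% level for 4 samples. Of the 21 genes examined in this way in WT chow, chance alone gives such a result in about 5% of cases.

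The effect of the genotype differed between the diets by the interaction test for Mcm6 (log2 value -2.616), Mcm5 (-3.098), Gins2 (-3.105), Exo1 (-3.754) and Chaf1a (-2.685). Each rose in KO chow against WT chow and was not called in KO CDAHFD against WT CDAHFD. Macrophage, stellate and cholangiocyte marker sums were also higher in both CDAHFD groups and in KO chow than in WT chow, and their part in these differences was not tested.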

How the results depend on the processing

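With library size as the only scaling, the members lower than in WT chow were 1 for KO chow, 1 for WT CDAHFD and 2 for KO CDAHFD, none was called higher in KO chow against WT CDAHFD or above 0 in the interaction, and the median of KO CDAHFD against KO chow turned to 0.034. That scaling also reversed Orc3 (0.075, 0.12 and 0.16 in KO chow, the WT diet comparison and KO CDAHFD), Rfc1 (0.16, 0.39 and 0.37), Pold2 (0.095, 0.24 and 0.43), Dna2 in KO CDAHFD (0.018) and E2f8 in WT CDAHFD (0.40). For KO chow against WT CDAHFD, the number higher was 0 with DESeq2 size factors, with no filter and with the replicate block, 2 in the low-Dbp libraries and 3 with DESeq2, with only the groups compared and with the clock covariate. The number lower there was 1 with no filter and with DESeq2, as it was for KO CDAHFD against WT CDAHFD. In the low-Dbp libraries 3 members were lower in KO CDAHFD against WT chow, and E2f8 in WT CDAHFD stood at 0.074. The interaction was above 0 for 2 members with DESeq2 and with the clock covariate. The causes were not tested.

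Leaving out single libraries gave 0 to 4 members lower in KO chow, with none lower without KO chow replicate 1, 0 to 2 higher in KO chow against WT CDAHFD and 0 to 2 above 0 in the interaction. The median of KO CDAHFD against WT CDAHFD ran from -0.027, without KO CDAHFD replicate 2, to 0.093, and E2f8 in WT CDAHFD from -0.56 to 0.18, with 0.0031 without WT chow replicate 1. In KO CDAHFD against WT chow the number higher ran from 24, without KO CDAHFD replicate 2, to 32.

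Replicate numbers came from the sample titles, and the description of KO chow replicate 2 carries animal number 3. Deviations of same-numbered libraries correlated at -0.242 to 0.266 over 15 pairs. As the labels name no batch, these values cannot show whether libraries were paired. With a replicate block, the members higher and lower than in WT chow were 29 and 3 for KO chow, 30 and 6 for WT CDAHFD and 28 and 4 for KO CDAHFD, and the interaction was below 0 for 21 and above 0 for 0. Genes that average under 50 counts are limited by depth, and 48 members remained above that mean.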
